A study of Homo sapiens with 45 samples.

Results

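HCC70 is an established human breast cancer cell line, and its 3 libraries were compared with the libraries of 6 other lines that the literature classes with it as basal A, the more epithelial of the basal classes of breast cancer lines. The members were chosen by line name: 3 of the 45 libraries of the series belong to HCC70, and 18 belong to BT-20, HCC1143, HCC1187, HCC1806, HCC1937 and MDA-MB-468, with 3 libraries per line. The basal A class is not in the labels, which give the line, the medium and the sequencing run. HCC70 was grown in RPMI medium, as were HCC1143, HCC1187, HCC1806 and HCC1937, while BT-20 was grown in EMEM with insulin and MDA-MB-468 in L-15. All 7 lines are labelled epithelial, wild-type in genotype and untreated, so no allele or agent separates them by design, and each line stands for 1 tumour. The series as a whole concerns breast cancer cells with high MYC and their use of glutamine, and ribosome-depleted total RNA was sequenced and assigned to genes. Whether the libraries of 1 line stem from separate cultures is not in the labels, and p-values here measure the spread between libraries, which may be technical.

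Basal A lines keep cell junctions and keratins of the mammary epithelium, and some of them express genes of stratified or mucosal epithelia. Clade B serpins are intracellular protease inhibitors of epithelia and white blood cells, several of them encoded side by side. Genes of cholesterol synthesis are switched on together by the transcription factor SREBP2, which is cut from its membrane anchor when sterol is scarce and binds short sterol regulatory elements in promoters.

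The promoters of 3 genes bear on the results and are printed here from RefSeq (GRCh38.p14), written 5′ to 3′ on the gene's own strand. Of the 250 bases before each gene's start in RefSeq, those shown lie before its outermost start in GENCODE 29 as well, 180 bases for SERPINB3 and, to match it, for SERPINB4, and 224 for SREBF2. SERPINB3 and SERPINB4, neighbouring genes that were among the most different in HCC70, are shown because their start regions are near copies. Of the 180 positions, 179 were identical (99.4%), and the capitals mark the 1 that differs. The SERPINB3 stretch lies at chr18:63661964-63662143 and that of SERPINB4 at chr18:63644327-63644506, both on the minus strand. SREBF2, which encodes SREBP2, is shown because it carried the sterol element searched for, marked in capitals, and its stretch lies at chr22:41832855-41833078 on the plus strand.
SERPINB3: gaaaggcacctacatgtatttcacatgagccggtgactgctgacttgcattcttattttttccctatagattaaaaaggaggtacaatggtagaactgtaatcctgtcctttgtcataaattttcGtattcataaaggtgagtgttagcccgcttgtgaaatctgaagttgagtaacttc
SERPINB4: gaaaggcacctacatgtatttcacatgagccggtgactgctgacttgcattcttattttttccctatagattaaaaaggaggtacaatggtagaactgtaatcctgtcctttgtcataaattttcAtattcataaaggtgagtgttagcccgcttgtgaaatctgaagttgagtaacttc
SREBF2: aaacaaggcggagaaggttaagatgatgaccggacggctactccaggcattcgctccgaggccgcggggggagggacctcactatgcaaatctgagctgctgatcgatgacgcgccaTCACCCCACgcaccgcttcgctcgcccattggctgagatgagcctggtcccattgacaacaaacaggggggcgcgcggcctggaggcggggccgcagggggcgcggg

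The sterol element was searched as TCACNCCAC on both strands of the 250 bases before each RefSeq start. It was found in 310 of 35116 promoters in the table (0.883%) and in 1 of the 18 cholesterol genes whose promoter the table holds, SREBF2. A match is a description of letters and not of a bound site.

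The 3 HCC70 libraries held 8389590, 10388614 and 14653677 counts, and the other 18 held 4587650 to 11342442. Genes with at least 1 count numbered 27967 to 29753 in HCC70 libraries, against 29051 to 37213 in the others. After every library was thinned to 4587650 counts the ranges no longer overlapped, at 22665 to 24029 genes in HCC70 and 26121 to 34045 in the other lines. Long intergenic noncoding RNAs took 0.435% to 0.475% of the counts in HCC70 and 0.556% to 1.08% in the others. The epithelial label and the basal class, which comes from the literature, were checked against markers. KRT5, a basal keratin, had 2223, 2077 and 2213 TMM-scaled CPM in HCC70, and CDH1, the adhesion protein E-cadherin, had 628, 621 and 695 CPM. EPCAM, a surface protein of epithelia, had 318, 330.1 and 289.8 CPM, within the 129 to 602 CPM of the other lines. The estrogen receptor gene ESR1 had 7.37, 5.31 and 7.36 CPM and the progesterone receptor gene PGR 1.09, 0.791 and 0.48 CPM. The basal regulator TP63, in contrast, had only 2.32, 2.6 and 2.72 CPM. Markers of other cells were low, with the 9 fibroblast genes summing to 9.61 to 10.4 CPM in HCC70 (7.31 to 59.3 CPM in the others) and the 7 endothelial genes to 2.56 to 4.63 CPM (2.82 to 124 CPM). The 6 blood cell genes summed to 0.904 to 2.05 CPM in HCC70 and 0.86 to 5.74 CPM in the others, with HBA1 at 0 in HCC70, and the 6 adipocyte genes to 0.136 to 0.8 CPM and 1.71 to 24.8 CPM, with LEP and CIDEC at 0.

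The first comparison asked how many genes set HCC70 apart and how far that number depends on scaling. Of 17772 genes tested by edgeR's quasi-likelihood test against the mean of the other 6 lines, 2956 were higher in HCC70 (16.6%) and 3597 were lower (20.2%), at a Benjamini-Hochberg adjusted p under 0.05 and a log2 fold change of 1 or more in size. Together 36.9% of the genes were called, and higher genes were 45.1% of the calls. Without a threshold on fold, 6425 genes were higher and 5873 lower at the same adjusted p. For 1625 genes (9.14%) all 3 HCC70 libraries lay above all 18 others, and for 947 (5.33%) all 3 lay below. These included 1339 of the 2956 higher genes (45.3%) but 816 of the 3597 lower ones (22.7%). The other called genes overlapped with at least 1 library of another line.

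Scaling moved the balance between higher and lower genes more than their sum. The TMM factors rescale library totals so that the average gene, with extreme genes left out, is alike between libraries. They were 0.854 to 0.876 in HCC70 and 0.899 to 1.11 in the other libraries, without overlap. With library totals alone, 2156 genes were higher and 4449 lower (32.6% higher), and the median log2 fold change of all tested genes moved by -0.25. Upper-quartile factors gave 2229 higher and 4336 lower (34.0% higher), a shift of -0.22. TMM factors computed from the genes left by a stricter filter gave 2419 and 4100 (37.1% higher), a shift of -0.15. DESeq2 size factors gave 2757 and 3774, TMM factors from protein-coding genes 2809 and 3729, TMMwsp factors 3082 and 3473, and setting the median gene to 0 gave 3040 and 3507. The definition of the mean mattered as well. The fitted contrast averages the 6 lines on the log scale, so that 1 line near 0 lowers the mean. Against the arithmetic mean of the 6 lines 1757 genes were higher (9.89% of those tested) and 3491 lower, so that 33.5% of the calls were higher, and 22 calls changed direction. That count used folds with 0.5 CPM added to both means and kept the p-values of the log-scale contrast.

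**Figure D1:**
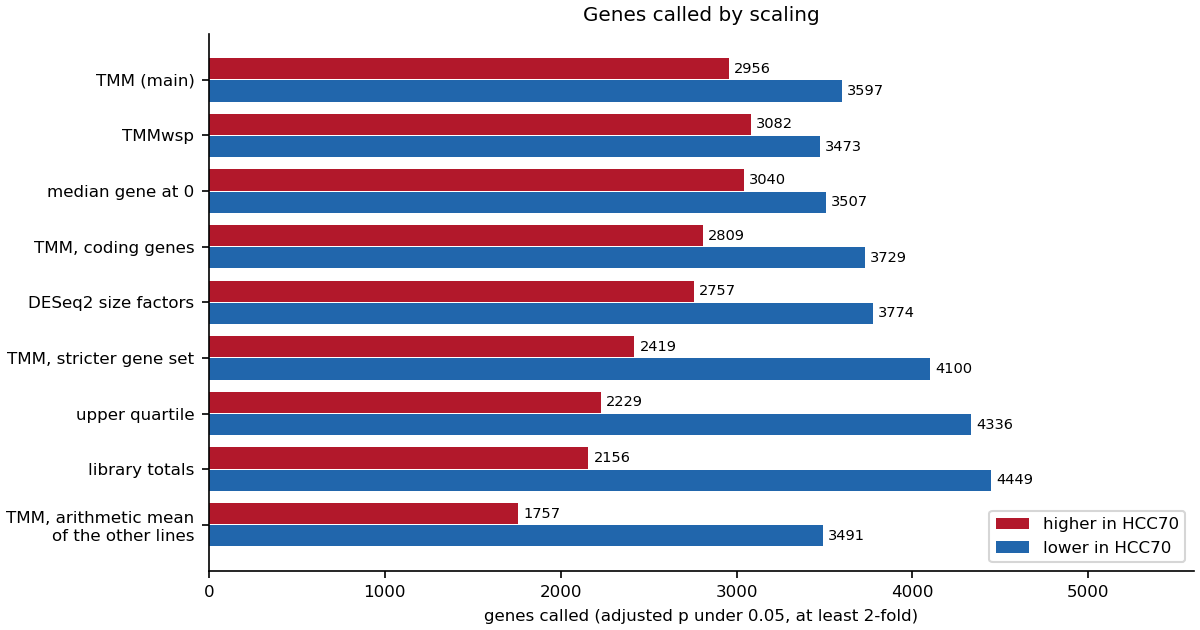
Horizontal bars give the number of genes called higher (red, upper bar of each pair) and lower (blue, lower bar) in HCC70 against the other 6 lines, from 17772 genes tested, by the way libraries were scaled. Higher genes ranged from 2156 with library totals to 3082 with TMMwsp factors, and lower genes from 4449 to 3473, while the bottom pair changes the mean of the other lines instead of the scaling.

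The direction of the calls also followed the level of the gene. Among genes with a mean under 2 CPM over the 7 lines, 12.1% were higher in HCC70 and 37.0% lower. At 10 to 50 CPM the shares were 18.8% and 12.8%, and at 200 CPM or more they were 15.5% and 3.64%. In libraries thinned to the same total, genes under 2 CPM were higher in 12.4% and lower in 29.6%, and those at 200 CPM or more in 12.9% and 4.17%. With library totals the same 2 classes had 9.86% higher and 44.1% lower, and 9.68% higher and 6.75% lower. At 10 to 50 CPM the direction itself depended on the setting. Library totals gave 13.6% higher and 17.4% lower there, upper-quartile factors 13.99% and 16.7%, and the arithmetic mean of the lines 11.7% and 16.4%. Thinned libraries kept more higher than lower calls in this class, at 16.6% and 14.3%. Of 906 long intergenic noncoding RNAs tested, 125 were higher and 317 lower (34.99%). Of 13915 protein-coding genes tested, 2391 were higher (17.2%) and 2579 lower (18.5%). The part of the smaller number of detected genes in these shares was not tested.

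**Figure D2:**
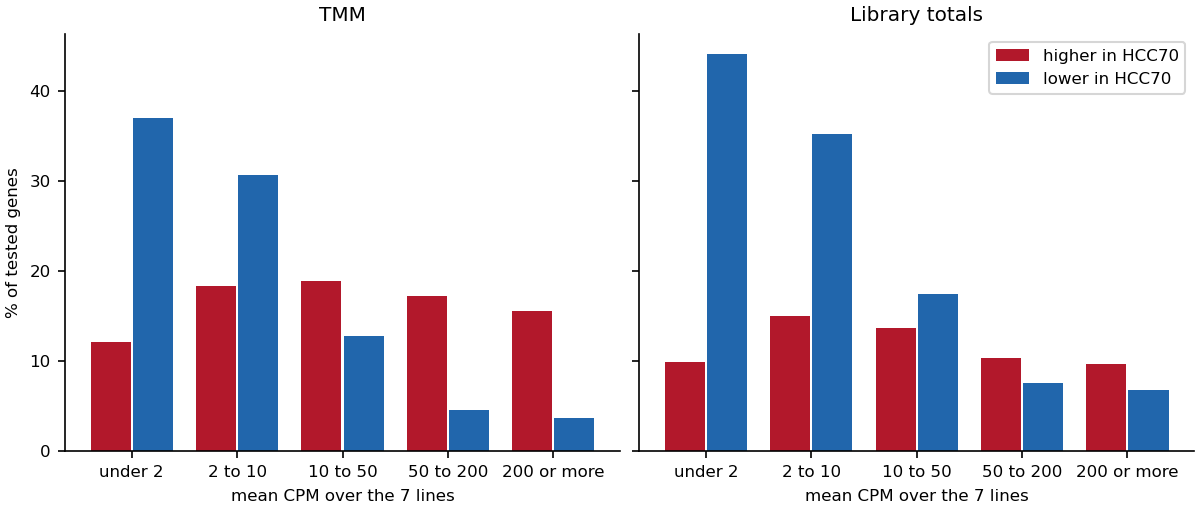
Bars give the percentage of tested genes called higher (red) and lower (blue) in HCC70, by the mean CPM of the gene over the 7 lines, with TMM factors (left) and with library totals (right). Lower calls fall from 37.0% of the genes under 2 CPM to 3.64% of those at 200 CPM or more with TMM factors, and from 44.1% to 6.75% with library totals.

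The largest differences upwards included secreted and epithelial proteins whose genes were close to silent in the other 6 lines. TCN1 (ENSG00000134827.7, chr11:59852800-59866575), which encodes the vitamin B12 carrier haptocorrin of secretions, had 1160.4, 1258 and 1221 CPM in HCC70. In the other 18 libraries its lowest, median and highest values were 0.148, 0.975 and 2.68 CPM. The groups did not overlap, the log2 fold change was 10.18 ± 0.11 (SE; edgeR adjusted p = 2.99e-29), and the mean of HCC70 was 643 times that of BT-20, the highest other line. SERPINB3 (ENSG00000057149.15, chr18:63655197-63661963), an inhibitor of cysteine proteases known as squamous cell carcinoma antigen, had 740.2, 889 and 869 CPM, against 0, 1.15 and 5.05 CPM (lowest, median, highest). SERPINB4, its neighbour and an inhibitor of serine proteases, had 477, 586 and 623 CPM, against 0.167, 1.11 and 2.52 CPM. Their log2 fold changes were 9.49 ± 0.12 and 9.27 ± 0.10, and every HCC70 library lay far above every other. Of the 1728 windows of 50 bases along the longest SERPINB3 transcript in GENCODE 29, 413 (23.9%) also occur letter for letter in a SERPINB4 transcript. Reads within them cannot be placed on either gene by sequence alone, and the split of counts between SERPINB3 and SERPINB4 is uncertain.

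SERPINB2, the plasminogen activator inhibitor of macrophages and keratinocytes, had 126, 151 and 139 CPM in HCC70, against 0.143, 0.544 and 28.01 CPM. Its highest other line was HCC1806, at 25.9 ± 2.36 CPM (SD, n = 3). Of the 12 clade B serpins tested, 10 were higher and 1 was lower, and 5 lay above all other libraries, against 16.6%, 20.2% and 9.14% of all genes. The median log2 fold change of the 12 was 2.69, and that of all genes tested was -0.02. SERPINB11, which overlaps SERPINB3 on the opposite strand, had 16.2, 13.2 and 15.2 CPM against 0.147 to 3.1 CPM, and without a stated strand setting reads of the 2 genes cannot be told apart. SERPINB9, the inhibitor of granzyme B, had 23.5, 28.3 and 28.2 CPM, against 0 to 12.8 CPM. Maspin (SERPINB5) was higher (log2 fold change 2.92 ± 0.076), but HCC70 averaged 345 ± 13.4 CPM and HCC1806 1199 ± 68.7 CPM (SD, n = 3 each). SERPINB13, a serpin of stratified epithelium, was lower (log2 fold change -2.41 ± 0.58), with at most 0.32 CPM in HCC70 and 0 to 69.7 CPM in the others. Against the arithmetic mean of the lines 8 of the 12 were higher and 1 lower. SERPINA5, the protein C inhibitor of another clade, had 24.3, 22.2 and 21.2 CPM in HCC70 and stayed under 1 CPM in every other library.

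Other genes of this kind were CXCL17, GBP6, BCL2L15, PTPN22 and DMBT1. CXCL17, a chemokine of mucosal surfaces, had 40.1, 43.6 and 55.5 CPM in HCC70, against 0, 0.373 and 0.948 CPM (log2 fold change 7.06 ± 0.15, edgeR adjusted p = 1.86e-23). GBP6, a guanylate-binding protein, had 152, 167 and 153 CPM, against 0, 0.602 and 2.37 CPM. BCL2L15, a BCL2-like protein of the gut, had 148, 147 and 137 CPM, against 0, 0.326 and 1.15 CPM, and PTPN22, a tyrosine phosphatase of lymphocytes, had 79.7, 75.96 and 92.3 CPM, against 0, 0.744 and 2.21 CPM. In none of these 4 genes did the groups come close. BCL2L15 (chr1:113878168-113887547) and PTPN22 (chr1:113813811-113871759) lie next to each other, and both overlap the antisense gene AP4B1-AS1. DMBT1, a secreted scavenger receptor, had 93.2, 86.02 and 124 CPM, against 0.148, 0.516 and 4.01 CPM. The remaining genes among the 15 largest differences were ISLR, SPON1, SMIM22, TDRD1 and PLCXD3. Of these, PLCXD3, a phospholipase C-like gene, was high at 660.2, 656 and 740.4 CPM, with 29.2 ± 14.3 CPM in HCC1187 as the highest other line. SPON1 (F-spondin), with 100.6, 117 and 114 CPM in HCC70, also reached 26.3 ± 4.08 CPM in HCC1187, and the piRNA pathway gene TDRD1 had 127, 135 and 139.99 CPM against 21.4 ± 4.24 CPM in HCC1187.

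**Figure D3:**
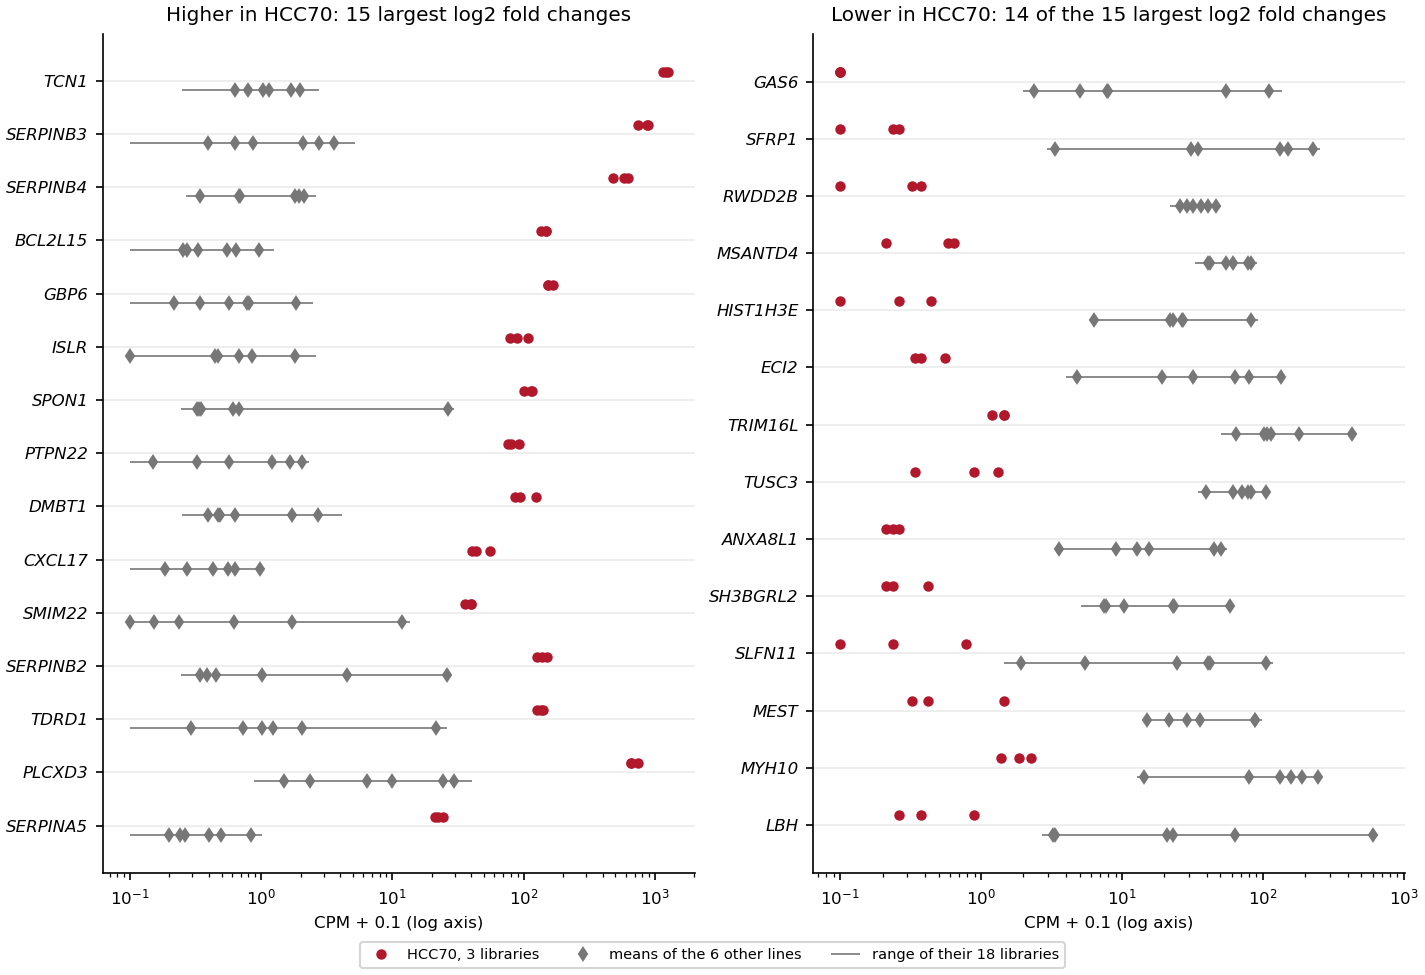
Points on a log axis give CPM + 0.1 of the 15 genes with the largest log2 fold change upwards and 14 of the 15 downwards: red circles are the 3 HCC70 libraries, upper row of each gene, and grey diamonds are the means of the 6 other lines, with a line over the range of their 18 libraries. HCC70 lies to the right of every other library for the higher genes and to the left for the lower ones, as the rule of choice required, and TCN1 stands at 1160.4 to 1258 CPM in HCC70.

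Genes of secretion and of the S100 family followed. Of 14 mucosal secretory genes tested, 7 were higher and 1 lower, with a median log2 fold change of 0.91, beside 16.6% and 20.2% of all genes tested. Against the arithmetic mean of the lines 4 of the 14 were higher and 1 lower. CEACAM6, an adhesion molecule of mucosal epithelium, had 164, 188 and 207 CPM in HCC70, against 0.323, 2.36 and 15.9 CPM in the other libraries (log2 fold change 6.04 ± 0.12). WFDC2, a whey acidic protein, had 6.55, 8.48 and 13.2 CPM, against 0 to 4.83 CPM. Both lay above all other libraries. LCN2 was called higher (log2 fold change 1.41 ± 0.21) although HCC70 averaged 47.9 ± 13.2 CPM and HCC1937 227 ± 97.3 CPM. Of 14 S100 genes tested, 10 were higher and 2 lower, and 9 lay above all other libraries, as did 9.14% of all genes. S100A9 and S100A8, which pair to form calprotectin, had 860.2, 1076 and 932 CPM and 102, 112 and 103 CPM in HCC70, against 6.4 to 695 CPM and 0 to 51.7 CPM in the others. S100A6 had 3798, 4104 and 3219 CPM, against 0.739, 951 and 1825 CPM, the upper ones being those of HCC1937. S100P had 179, 167 and 162 CPM, against 0, 12.05 and 100.4 CPM. In these 4 genes the groups did not overlap. Psoriasin (S100A7), at 4.78, 7.57 and 6.32 CPM, was an exception in that MDA-MB-468 averaged 27.2 ± 15.2 CPM.

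Of 30 epithelial junction genes tested, 19 were higher in HCC70 and none was lower, beside 16.6% and 20.2% of all genes, and this count depended on scaling. Of the 30, 11 lay above all other libraries, where 9.14% of all genes did, and the median log2 fold change was 1.12. With library totals 11 were higher, with upper-quartile factors 12, and against the arithmetic mean 12. CDH1 had 628, 621 and 695 CPM in HCC70, against 53.2, 151 and 495 CPM (log2 fold change 2.06 ± 0.073, edgeR adjusted p = 8.04e-19). The next line was BT-20, at 474 ± 19.2 CPM (SD, n = 3). CLDN4, a tight junction claudin, had 337, 309 and 337 CPM, against 48.8, 82.2 and 229.5 CPM, and CLDN7 had 207, 209 and 226 CPM, against 19.8, 88.5 and 142 CPM. ELF3, an epithelial transcription factor, had 335, 360.3 and 362 CPM, against 25.96, 136 and 249.4 CPM. The protease matriptase (ST14) and its inhibitors SPINT1 and SPINT2 were all higher, with log2 fold changes of 1.34 ± 0.075, 1.45 ± 0.073 and 1.17 ± 0.079, and so was prostasin (PRSS8), at 1.68 ± 0.11. EPCAM was not called (log2 fold change -0.17 ± 0.092).

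Mesenchymal genes were mainly called in the other direction. Of 24 tested, 3 were higher and 12 lower, with a median log2 fold change of -0.85, where 16.6% and 20.2% of all genes were. SPARC, a matrix protein, had 0.136, 0 and 0 CPM in HCC70, against 0.162, 1.29 and 14.1 CPM, and lay below all other libraries. CDH2 (N-cadherin) had 0.136, 0.565 and 0.4 CPM, against 0.167, 2.58 and 141 CPM, a broad range in which HCC1187 was highest. COL6A2, a collagen VI chain, had 0.136, 0.226 and 0.4 CPM, against 0, 25.6 and 105 CPM. The 12 lower genes were all at 3 CPM or less in HCC70, and 11 of them overlapped with other libraries. Among all lower genes 22.7% lay below all other libraries. CAV2, SNAI2 and TGFB1I1 were the higher ones. CAV2 (caveolin 2) had 483, 594 and 536 CPM, between the median of 166 CPM and the highest value of 821 CPM in the others. VIM was not called, at 40.9, 44.1 and 45.6 CPM in HCC70 and 1.78 to 1590.4 CPM in the others.

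Basal keratins were high in HCC70, mostly beside 1 or 2 other lines. Of 21 basal keratinocyte and myoepithelial genes tested, 13 were higher and 3 lower (16.6% and 20.2% of all genes), with a median log2 fold change of 2.72. All 3 HCC70 libraries lay above all others in 5 of the 21, as in 9.14% of all genes. Against the arithmetic mean of the lines 8 were higher and 7 lower. KRT16, a keratin of activated keratinocytes, had 3359.95, 3313 and 3006 CPM, against 19.7, 52.6 and 726 CPM (log2 fold change 5.16 ± 0.11). KRT17 had 877, 908 and 856 CPM, against 2.61, 191 and 737 CPM. By contrast, KRT6B had a log2 fold change of 8.24 ± 0.097, with 1062 ± 60.3 CPM in HCC70 and 1673 ± 357 CPM in HCC1143. KRT14 likewise had 132 ± 4.84 CPM in HCC70 and 1583 ± 209 CPM in HCC1806, so its log2 fold change of 4.04 ± 0.12 rested on the lines in which it was near 0. These keratins have near-identical copies, and counts between copies are uncertain. The desmosomal cadherins DSG3 and DSC3, which hold keratinocytes together, averaged 243 ± 11.6 CPM and 451 ± 21.9 CPM in HCC70 (SD, n = 3), below the 652 ± 89.8 CPM and 593 ± 17.8 CPM of HCC1143. P-cadherin (CDH3) had 858, 781 and 866 CPM, above the 20.9 to 553 CPM of the others. The lower ones were TP63, COL17A1 and OXTR. OXTR, the oxytocin receptor of myoepithelium, had 0.546, 0.339 and 0.64 CPM, below the 1.93 to 227 CPM of the others.

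Some luminal genes were high in the same line. Of 16 tested, 10 were higher and 4 lower (16.6% and 20.2% of all genes). AGR2, a disulfide isomerase of secretory epithelium, had 285, 316 and 275 CPM in HCC70, against 0.29, 5.5 and 280.4 CPM, with HCC1806 overlapping. KRT19, a luminal keratin, had 4424, 4779 and 4127 CPM, against 13.04, 1039 and 3446 CPM. FOXA1 was higher (log2 fold change 1.96 ± 0.14), as was GATA3 (1.28 ± 0.23), both overlapping with other libraries. The lower ones were KRT18, TBX3, PGR and SPDEF, with log2 fold changes of -1.16 ± 0.10, -1.43 ± 0.39, -1.58 ± 0.33 and -1.66 ± 0.61. Luminal progenitor and alveolar genes were split, with 7 higher and 5 lower of 16. PROM1 (CD133) had 245, 248.8 and 259.9 CPM, against 0.135, 84.9 and 429 CPM, and SLPI, a secreted protease inhibitor, had 639.7, 659.7 and 702 CPM, against 6.1, 86.5 and 299 CPM. ELF5, the alveolar regulator, had 0.136, 0.452 and 0 CPM, against 0.287, 10.99 and 267 CPM, and ALDH1A3, a retinaldehyde dehydrogenase, had 202, 214 and 225 CPM, below the 332 to 2329 CPM of the others. Of these, SLPI lay above all other libraries, and PROM1 and ELF5 overlapped with them. Of 9 squamous genes tested, 5 were higher and 2 lower (3 and 1 against the arithmetic mean), with involucrin (IVL) at 85.99, 112 and 89.1 CPM in HCC70 and 0 to 94.3 CPM in the others. Of 6 kallikreins tested, KLK7 was higher and KLK6 and KLK11 were lower.

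Of 25 cholesterol synthesis and uptake genes tested, 14 were higher in HCC70 and none was lower, 12 lay above all other libraries, and the median log2 fold change was 1.25. Over all genes 16.6% were higher and 20.2% lower, and 9.14% lay above all others. With library totals or upper-quartile factors 13 were higher and 1 was lower. SREBF2 itself, whose start region is printed above, had 164, 145 and 182 CPM in HCC70, against 29.5, 48.3 and 99.7 CPM (log2 fold change 1.61 ± 0.12, edgeR adjusted p = 2.95e-12), with no overlap. IDI1, an isomerase that makes the second isoprene building block, had 769, 800.3 and 803 CPM, against 85.1, 239 and 531 CPM. MVD, the decarboxylase that precedes it, had 116, 101.3 and 104 CPM, against 22.9, 34.7 and 78.1 CPM, and MSMO1, a sterol oxidase, had 456, 467 and 474 CPM, against 65.8, 94.3 and 226 CPM. All 3 HCC70 libraries stood above the other 18 in these genes. INSIG1, which holds SREBP in the endoplasmic reticulum, had 187, 189.9 and 202 CPM, against 27.1, 54.4 and 85.5 CPM. HMGCS1, the synthase at the entry of the pathway, was not called (log2 fold change -0.47 ± 0.088). FDFT1 (squalene synthase) was higher (log2 fold change 3.79 ± 0.16) but held only 18.3, 16.2 and 15.8 CPM.

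Fatty acid genes were called in both directions, with 6 higher and 4 lower of 21 for synthesis and desaturation. For oxidation and lipid droplets 5 were higher and 1 lower of 23, beside 16.6% and 20.2% of all genes. The median log2 fold changes of the 2 lists were 0.71 and 0.33, and that of all genes tested was -0.02. With library totals the 23 had 4 higher and 3 lower, and against the arithmetic mean 3 and 1. FASN (fatty acid synthase) did not pass the test (log2 fold change 0.05 ± 0.14, edgeR adjusted p = 0.758). The acyl-CoA synthetases ACSL5 and ACSL1 had 97.7, 97.1 and 103 CPM and 459.7, 464 and 457 CPM in HCC70, above the 0.673 to 45.4 CPM and 25.4 to 244 CPM of the others. PLIN2, the coat protein of lipid droplets, had 256, 249.1 and 268 CPM, against 25.9, 36.3 and 61.8 CPM, and ACADM, a dehydrogenase of medium-chain fatty acids, had 491, 503 and 455 CPM, against 80.4, 124 and 211 CPM. ELOVL7, an elongase, and ECI2, an enoyl-CoA isomerase, fell below all other libraries. ECI2 had 0.273, 0.452 and 0.24 CPM in HCC70, against 3.9, 42.2 and 141 CPM (log2 fold change -6.74 ± 0.22).

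In central metabolism, single enzymes stood out rather than pathways. GLUL (chr1:182381704-182392206), which encodes glutamine synthetase, had 1371, 1254 and 1395 CPM in HCC70, against 43.5, 232 and 473 CPM (log2 fold change 2.75 ± 0.099, edgeR adjusted p = 1.18e-18). The next line was HCC1806, at 432 ± 51.9 CPM, and HCC70 averaged 1339.9 ± 75.7 CPM (SD, n = 3 each). Of the 20 genes of glutamine uptake and use, 2 were higher (GLUL and GLUD1) and 2 lower (SLC7A11 and GLS2), and with library totals 2 and 4. Over all genes 16.6% were higher and 20.2% lower. SLC7A11, the cystine importer, had 68.7, 60.02 and 64.7 CPM, against 18.9, 153 and 1288 CPM. GLS2, a glutaminase, had 0.273, 0.678 and 0.24 CPM, below the 1.45 to 12.1 CPM of the others.

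Of 31 genes of the TCA cycle and pyruvate entry, 6 were higher and 2 lower (16.6% and 20.2% of all genes), and both with library totals and against the arithmetic mean 3 and 2. IDH2, the mitochondrial isocitrate dehydrogenase, had 401, 392 and 404 CPM, against 9.02, 139.9 and 234 CPM (log2 fold change 2.15 ± 0.067), and IDH1, its cytosolic relative, had 1103, 1078 and 1058 CPM, against 138, 346 and 672 CPM. ACO1, the cytosolic aconitase, had 189, 186 and 181 CPM, against 38.6, 60.6 and 82.7 CPM. In these 3 genes the groups did not overlap. PDK4, a kinase that shuts pyruvate dehydrogenase, was below all other libraries at 0.819, 0.904 and 0.48 CPM. Of 34 nuclear complex I subunits tested, 2 were higher and 2 lower, and with library totals 0 and 3. NDUFB6 had 58.96, 69.9 and 73.9 CPM, against 17.6, 31.5 and 45.2 CPM, and NDUFB1 was called at a log2 fold change of 1.05 ± 0.12, close to the threshold. Of 13 mitochondrial mRNAs, MT-ND2 was lower (log2 fold change -1.02 ± 0.37) and none was higher. With library totals 4 of the 13 were lower. Of 23 glycolysis and lactate genes, 7 were higher and 3 lower. ENO1 (enolase) had 5159.6, 4951 and 4919 CPM, against 1088, 1553 and 3696 CPM, and PGK1 had 1100.4, 992 and 1113 CPM, against 275, 417 and 798 CPM, both without overlap. LDHB, the lactate dehydrogenase B chain, had 97.3, 74.4 and 73.6 CPM, against 1.72, 887 and 2304 CPM, with the lowest of the other lines below HCC70.

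MYC (ENSG00000136997.17, chr8:127735434-127741434), the oncogene in the title of the series, had 46.95, 52.4 and 54.6 CPM in HCC70, against 53.8, 90.6 and 164 CPM. The HCC70 libraries lay at the low end, with the highest of them above the lowest of the others. The log2 fold change was -0.77 ± 0.12 (edgeR adjusted p = 5.43e-06), under the fold threshold, and with library totals it was -1.02 and was called. Of 12 genes of the MYC network, 2 were higher (MXI1 and MYCL) and none was lower. Of 28 ribosome biogenesis genes tested, none was higher and 4 were lower (NOP56, NOP16, RRP12 and BYSL), with a median log2 fold change of -0.26. With library totals 9 were lower. NOP56, a protein of the nucleolar ribonucleoprotein that methylates ribosomal RNA, had 172, 187 and 188 CPM, against 175, 375 and 803 CPM. Of 25 cell cycle and mitosis genes, 2 were higher and none was lower, and with library totals 1 and 1. Over all genes 16.6% were higher and 20.2% lower. CCNE2 (cyclin E2) had 419, 439 and 452 CPM, against 72.6, 125 and 195 CPM, and the proliferation marker MKI67 was not called.

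The CDK inhibitors of chromosome 9p were high, as were their neighbours. CDKN2A had 176, 178 and 199 CPM in HCC70, against 0, 19.6 and 84.5 CPM (log2 fold change 5.21 ± 0.11), and CDKN2B had 285, 300.4 and 299 CPM, against 0, 42.9 and 252 CPM. CDKN1A (p21) had 78.2, 67.7 and 94.5 CPM, against 3.63, 19.2 and 59.7 CPM, and CDKN2C 113, 129 and 119 CPM, against 17.4, 39.8 and 64.3 CPM. In these 4 genes no HCC70 library overlapped with the others. Cyclin D1 (CCND1) had 132, 145 and 140.2 CPM, below the 233 to 3553 CPM of the others (log2 fold change -2.09 ± 0.12). RB1, which cyclin D-dependent kinases inactivate, had 81.1, 84.8 and 87.9 CPM, and the others ranged from 0.473 to 176 CPM.

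Growth receptors did not move together. Of 13 ERBB receptor and ligand genes, 5 were higher and 2 lower (16.6% and 20.2% of all genes), and against the arithmetic mean 3 and 3. The ligand gene EPGN had 34.9, 43.5 and 35.5 CPM in HCC70, against 0.162, 1.97 and 9.78 CPM, and BTC (betacellulin) had 22.7, 28.5 and 24.3 CPM, against 0.445, 6.05 and 17.6 CPM. The receptor gene ERBB3 had 138, 136 and 153 CPM, against 47.4, 61.6 and 80.1 CPM, and lay above all other libraries like EPGN and BTC. EGFR was not called, at 162, 147 and 176 CPM with 1777 ± 622 CPM in MDA-MB-468. The ligand NRG1 had 0, 0.113 and 0.16 CPM, against 0.143, 2.81 and 72.4 CPM. Of 22 FGF, IGF, MET and other receptor genes, 6 were higher and 7 lower. With library totals 4 were higher and 8 lower, and against the arithmetic mean 2 and 10. IGFBP3, a carrier of insulin-like growth factors, had 2332, 2704 and 2698 CPM, against 0, 696 and 914 CPM (log2 fold change 3.66 ± 0.10). The insulin receptor gene INSR had 3.14, 1.58 and 1.6 CPM, against 16.8, 54.5 and 85.7 CPM, and FGFR2 had 2.18, 1.81 and 1.6 CPM, against 15.5, 32.7 and 62.4 CPM, both below all other libraries. IRS2, an adaptor of the insulin receptor, was also below them, at 0.682, 0.452 and 0.56 CPM against 1.66, 12.9 and 48.6 CPM. Of 24 genes of the PI3K list tested, 4 were higher and 1, IRS2, was lower.

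The largest differences downwards were genes at or near 0 in HCC70. GAS6 (ENSG00000183087.14, chr13:113820549-113864067), the ligand of the TAM receptor kinases, had 0 counts in all 3 HCC70 libraries, against 1.89, 7.72 and 136 CPM in the others. With a floor of 3 counts over the summed HCC70 libraries, which is 0.105 CPM, GAS6 was at least 299-fold lower than the mean of the 6 lines and at least 21.7-fold lower than BT-20, the lowest line. The fitted test gave an adjusted p of 7.85e-14 (edgeR). SFRP1 (ENSG00000104332.11, chr8:41261958-41309497), a secreted inhibitor of WNT signalling, had 0.136, 0 and 0.16 CPM, against 2.83, 84.5 and 254 CPM (log2 fold change -8.68 ± 0.27). TUSC3, a subunit of the oligosaccharyltransferase, had 1.23, 0.791 and 0.24 CPM, against 34.4, 71.2 and 109.8 CPM, and MYH10, a non-muscle myosin, had 1.77, 2.15 and 1.28 CPM, against 12.7, 145 and 252 CPM. SLFN11, which blocks stressed replication forks, had 0.136, 0.678 and 0 CPM, against 1.35, 30.5 and 118 CPM. In each of these genes all HCC70 libraries were below all others. Others among the 15 largest were RWDD2B, MSANTD4, HIST1H3E, ECI2, TRIM16L, ANXA8L1, SH3BGRL2, MEST and LBH. Among them HIST1H3E, TRIM16L and ANXA8L1 have near-identical copies elsewhere in the genome, which makes their counts uncertain.

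A pattern of near absence in HCC70 alone was rare. Among tested protein-coding genes, 9 were under 1 CPM on average in HCC70 and at 10 CPM or more in each of the other 6 lines: RWDD2B, MSANTD4, TUSC3, STOX2, MEST, EPB41L2, CHST11, RXYLT1 and ELOVL7. RWDD2B had 0.273, 0.226 and 0 CPM, against 21.8, 34.01 and 50.02 CPM, and MSANTD4 0.546, 0.113 and 0.48 CPM, against 32.8, 55.8 and 90.2 CPM. MEST, an imprinted gene, had 1.36, 0.226 and 0.32 CPM, against 13.7, 33.1 and 98.8 CPM. RXYLT1, a glycosyltransferase of dystroglycan, had 0.819, 1.13 and 0.8 CPM, against 19.4, 30.00 and 55.7 CPM. No HCC70 library reached any of the others in these genes. The reverse pattern, at least 10 CPM in HCC70 and under 1 CPM in each other line, was met by 3 genes, BCL2L15, SERPINA5 and CXCL17.

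Genes around GAS6 were lower in part. Of 15 TAM receptor and YAP target genes, 9 were lower and none was higher, with a median log2 fold change of -1.54 (16.6% higher and 20.2% lower over all genes) and the same counts with library totals and against the arithmetic mean. The receptor gene AXL had 0, 0.339 and 0.16 CPM in HCC70, against 0, 1.57 and 93.8 CPM, and MERTK 0.273, 0.452 and 0.56 CPM, against 0.787, 1.75 and 2.76 CPM. The YAP target ANKRD1 had 0.273, 0.226 and 0.08 CPM, against 1.29, 7.77 and 38.9 CPM, and AJUBA, a LIM protein of the Hippo pathway, had 21.2, 19.7 and 19.6 CPM, against 27.1, 58.9 and 356 CPM. HCC70 lay below all other libraries in MERTK, ANKRD1 and AJUBA, and AXL overlapped. Of 24 WNT and NOTCH genes tested, 5 were higher and 9 lower, with a median log2 fold change of -0.07, and against the arithmetic mean 2 and 9. WNT5B had 25.1, 28.6 and 25.3 CPM, above the 0.109 to 23.8 CPM of the others, and the receptor LGR4 was lower (log2 fold change -1.59 ± 0.095). Of 22 TGF-beta and BMP genes, 7 were higher and 4 lower (4 and 5 against the arithmetic mean), with TGFB3 at 14.2, 11.2 and 10.9 CPM, against 0.316, 1.69 and 8.8 CPM.

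Interferon, antigen presentation and cytokine genes were higher in part, mostly overlapping with another line, while the NRF2, stress response and BCL2 family lists had shares of higher genes near the 16.6% of all genes. Of 21 interferon response genes tested, 11 were higher and 1 lower, and 1, IFIT2, lay above all other libraries. Among all genes tested 16.6% were higher and 20.2% lower, and 9.14% lay above all others. IFIT2 had 85.6, 85.9 and 90.9 CPM in HCC70 and 6.47 to 77.2 CPM in the others. IFI44 had 293, 316 and 277 CPM in HCC70, while HCC1187 averaged 454 ± 62.8 CPM. Against the arithmetic mean 7 of the 21 were higher. Of 21 listed genes of antigen presentation only 10 passed the count filter, and TAP1, TAP2, TAPBP, PSMB8 and PSMB9 were among those that did not. Of the 10 tested, 7 were higher and 1, HLA-B, was lower. With library totals or against the arithmetic mean 4 were higher, and with upper-quartile factors 5. HLA counts depend on each line's alleles and on the handling of similar copies, so they are uncertain, and B2M, which has no such copies, had 561, 548 and 502 CPM, against 134, 244 and 456 CPM. Of 18 cytokine genes tested, 7 were higher and 3 lower (4 and 4 against the arithmetic mean), with CCL28, a mucosal chemokine, at 113, 133 and 126 CPM, against 1.45, 28.4 and 56.8 CPM. Of 18 hypoxia genes, 5 were higher and 2 lower, and against the arithmetic mean 3 and 2. CA9, a carbonic anhydrase of hypoxic tumours, had 45.5, 46.9 and 55.1 CPM, against 0, 0.604 and 24.6 CPM (log2 fold change 5.84 ± 0.21). Of 22 NRF2 and glutathione genes, 4 were higher and 3 lower (1 and 5 against the arithmetic mean), with AKR1C2 at 31.4, 24.98 and 23.9 CPM against 17.7, 538 and 6537 CPM. Of 19 stress response genes, 3 were higher and 2 lower, and with library totals 1 and 2. HSP90B1, a chaperone of the endoplasmic reticulum, was below all other libraries at 758, 759.7 and 704 CPM. BCL2 family genes had 2 higher and 1 lower of 15, and with library totals 1 and 2. Among 4 metallothioneins tested 3 were higher (2 higher and 1 lower against the arithmetic mean), with MT1X at 38.9, 40.7 and 42.6 CPM against 0.739, 4.89 and 16.6 CPM. Among 8 cancer-testis genes tested 1 was higher, MAGEA4, and the median log2 fold change was -1.09. Against the arithmetic mean 0 of the 8 were higher and 1 was lower.

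**Figure D4:**
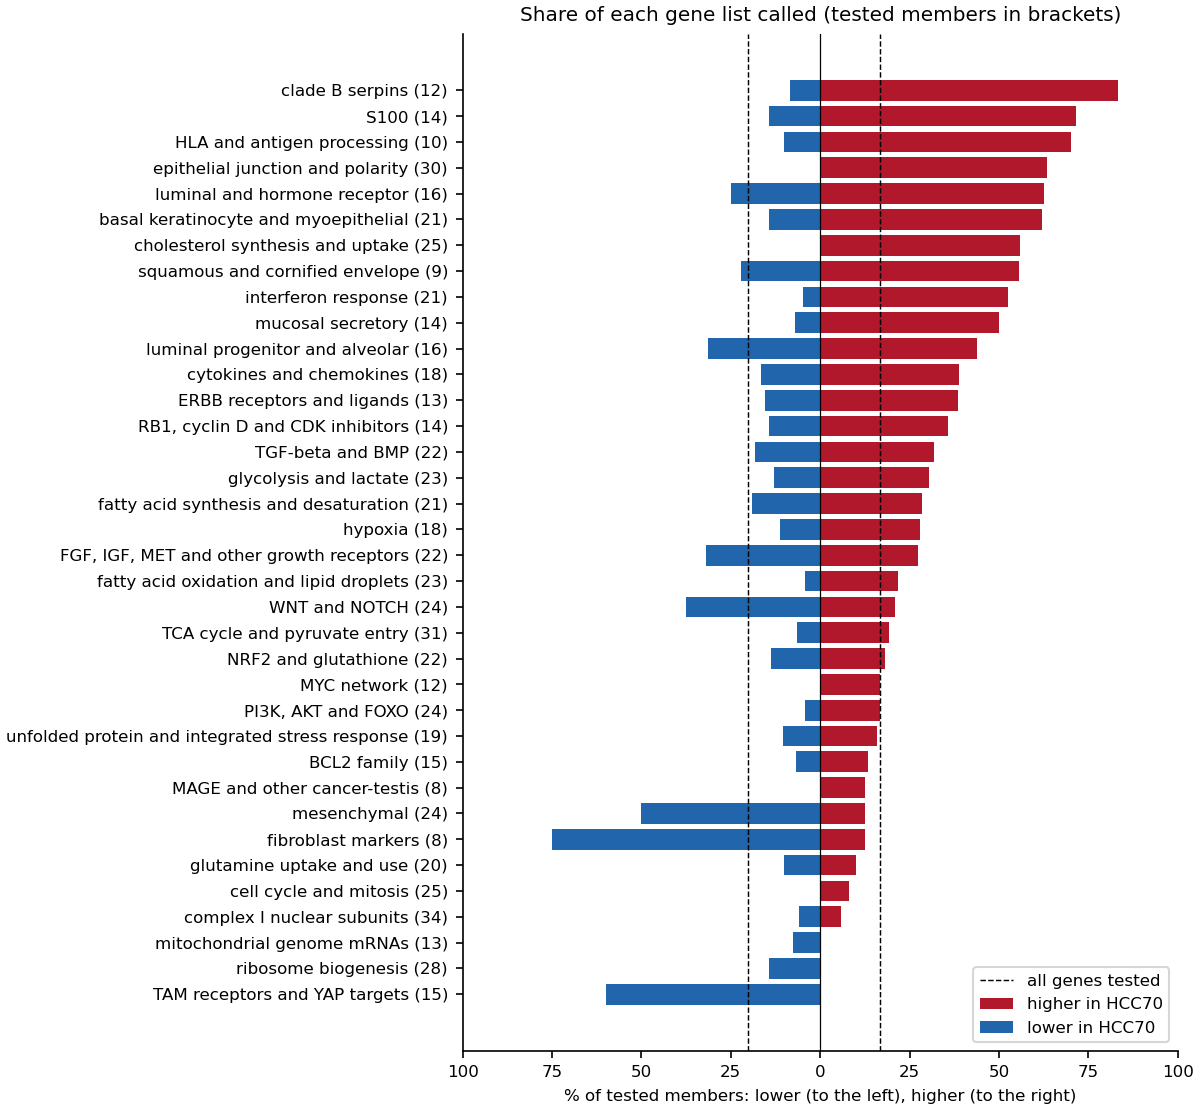
Bars give the percentage of the tested members of each gene list (number in brackets, lists with at least 8) called higher in HCC70 to the right in red and lower to the left in blue, and dashed lines mark all genes tested, 16.6% higher and 20.2% lower. Clade B serpins (10 of 12), S100 genes (10 of 14) and epithelial junction genes (19 of 30) reach far to the right, and TAM receptor and YAP target genes (9 of 15) and mesenchymal genes (12 of 24) to the left.

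Differences ran in stretches along chromosomes. Protein-coding genes tested on chromosome 16 had a median log2 fold change of 0.69, with 177 higher and 36 lower of 579, those on chromosome 1 one of 0.55 and those on chromosome 7 one of 0.52. Chromosome 21 was lowest at -0.48, followed by chromosome 11 at -0.34. For comparison, 17.2% of all protein-coding genes tested were higher and 18.5% lower, with a median log2 fold change of 0.04. All 3 HCC70 libraries lay above all others for 9.14% of all genes tested and below for 5.33%. In 334 blocks of 40 neighbouring protein-coding genes, medians ranged from -1.54 to 1.66, and the median of these medians was 0.03. The highest block opened chromosome 9, from WASHC1 to SNAPC3, with 33 genes higher, none lower and 26 above all other libraries. The next block, from PSIP1 to CHMP5, which holds CDKN2A and CDKN2B, had 34 higher and none lower, at a median of 1.51. On chromosome 1 the block from WDTC1 to ADGRB2 had a median of 1.32. The lowest block, on chromosome 8 from BAG4 to PXDNL, which holds SFRP1, had 27 lower, 2 higher and 21 below all other libraries. Blocks from ZNF596 to XPO7, which holds TUSC3, and from CLU to LSM1 on the same chromosome had medians of -1.24 and -1.16. On chromosome 11 the block from PRMT3 to LMO2 had 30 lower and 2 higher, at a median of -1.36. These values are a description without a test, and copy number of DNA was not measured.

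**Figure D5:**
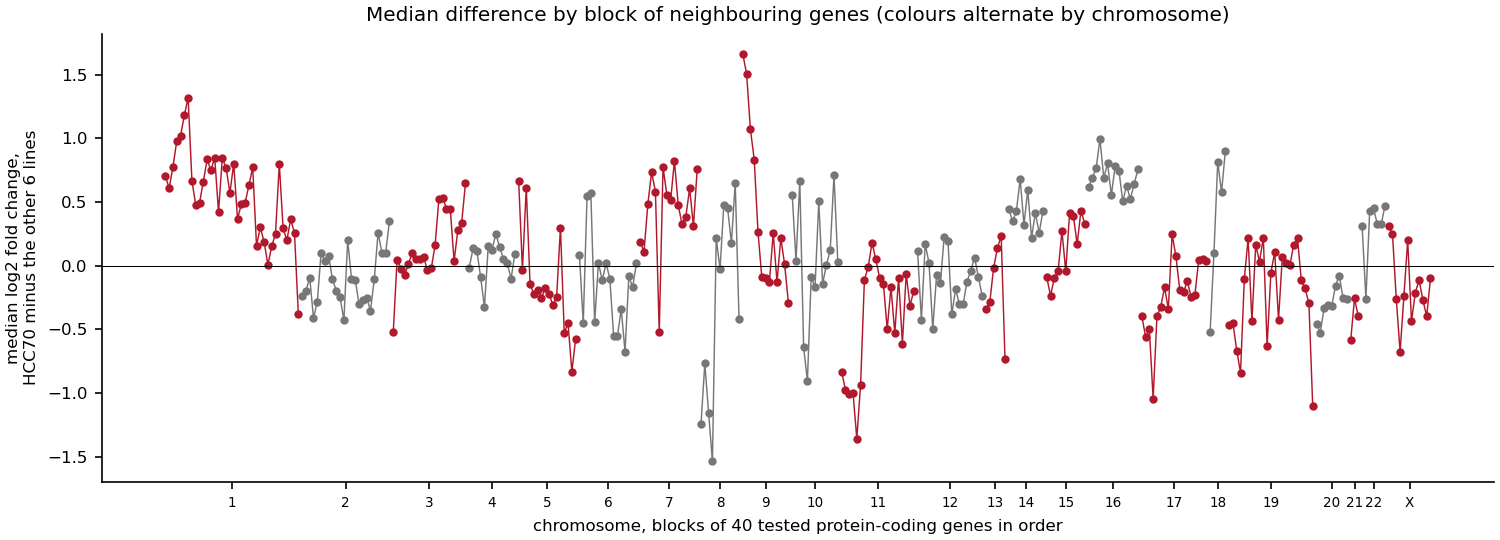
Each point is the median log2 fold change, HCC70 minus the other 6 lines, of 40 neighbouring tested protein-coding genes, in order along each chromosome, with colours that alternate by chromosome. Points stand highest at the start of chromosome 9 (1.66 and 1.51) and lowest on chromosomes 8 (-1.54) and 11 (-1.36).

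The number of calls fell when the line was taken as the unit. With the counts of each line summed, 1 HCC70 sum against 6 sums, and the spread between the other lines as error, 14 of 26358 genes were higher (0.0531%) and 0 were lower (edgeR, adjusted p under 0.05 and the same fold). At an unadjusted p under 0.05 with the fold, 932 were higher and 1148 lower. The coefficient of variation common to the 17772 genes of the main fit was 0.126 between libraries of a line. Between lines it was 0.746 over the 26358 genes of the line sums. The 2 values thus differ in their genes as well as in their unit. The 14 were TCN1, SERPINB3, SERPINB4, BCL2L15, GBP6, CXCL17, EPB41L3, SLC39A2, AC092810.3, PLA2G3, VSIG2, PPP1R11 and 2 genes without a symbol. EPB41L3, a membrane skeleton protein, had 91.99, 104 and 95.7 CPM in HCC70, against 0.573, 2.4 and 8.08 CPM, and SLC39A2, a zinc importer, had 28.1, 31.2 and 25.3 CPM, against 0, 0.424 and 1.35 CPM. PPP1R11 had 2.05, 2.15 and 2.88 CPM, and at that level its value is uncertain. The same contrast for each of the other 6 lines, which share libraries with this one, called 4353 genes in HCC1937 to 6513 in HCC1143, against 6553 in HCC70.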

How the data were processed

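Per the labels' protocols, libraries were made from 1000 ng of total RNA with Ribo-Zero Gold and ScriptSeq v2. Per the submitters' processing notes, bcl2fastq 2.20.0.422, FastQC, MultiQC, Trimmomatic, STAR and featureCounts were used, with genome build GRCh38.p12. Not given in the sources used here were the annotation, the strand setting and the treatment of multi-mapping reads. The authors deposited raw counts of 64485 genes. Of these, 58320 (90.4%) matched GENCODE 29 by identifier without version, and the rest held 0.0785% of the counts.

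From the counts of 21 libraries, edgeR 4.0.16 (R 4.3.3) fitted a mean per line after filterByExpr (minimum count 10, minimum total 15) and TMM scaling. HCC70 was tested against the unweighted mean of 6 lines on the log scale by the two-sided quasi-likelihood F test with 14 residual degrees of freedom, at an adjusted p under 0.05 and a log2 fold change of 1 or more in size. The SE is the absolute log2 fold change divided by the square root of F. Alternatives were other scalings, filters, tests (DESeq2 1.42.0, limma 3.58.1), reference lines, thinning, blocks and left-out libraries.

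The named genes are the 15 protein-coding genes with the largest log2 fold change in each direction among those called, with all HCC70 libraries outside the range of the others and at least 20 CPM on the higher side, up to 6 called members per list with the largest change, and 8 genes of interest, among them GLUL, IDH2, CDH1, MYC, GAS6, TCN1 and SERPINB3. A few genes that meet these rules are not reported here. Other list members were named after their values were seen. The members, the lists and the tests were chosen with earlier results of these data known. Of the 35 named outside the lists, 15 overlap a gene on the opposite strand, and without strand such reads cannot be told apart. A gene on the same strand overlaps 9 of the 35, among them SERPINB2 and SERPINA5, whatever the strand setting.

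The same replicate number marks the same run in HCC70 and 5 of the other lines (runs 3, 4 and 5), and HCC1143 was in runs 1 and 2. Over 15 pairs, deviations of same-numbered libraries from their line means correlated between -0.0965 and 0.172 (median 0.0551). Replicates of a line differed by more than sampling noise in every pair, with a chi-square per gene of 3.05 to 18.5.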

Additional observations from a re-analysis of the deposited data

Results flagged for a closer look

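Of the 15 genes with the largest log2 fold change upwards, 2 were higher still in lines outside the comparison, on a scale fitted to all 45 libraries. SERPINB2 averaged 146 ± 14.5 CPM in HCC70 (SD, n = 3) and 949.5 ± 164 CPM in MDA-MB-436, and 2 of the 8 lines not used here were above HCC70. SMIM22 averaged 40.6 ± 2.35 CPM in HCC70 and 51.1 ± 8.16 CPM in MDA-MB-453. The other 13 genes were lower in each of these 8 lines than in HCC70. These differences from the unused lines were not tested.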

How the results depend on the processing

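With scalings, filters, tests, reference lines and left-out libraries changed one at a time, most calls of named genes held, except with line sums. Of the 221 genes followed, 220 were called in the fit reported, mostly picked for large changes, which favoured kept calls. With line sums 7 of the 221 kept direction and call. Of 10096 values for 221 named and listed genes over 46 settings, 9682 kept direction and call, 407 lost the call, 208 of them with line sums, 1 (MYC, library totals, -1.02) gained it and 6 turned direction. The 6 were KRT14 (-0.91), SAA1 (-0.58), CD74 (-0.27), ANGPTL4 (-0.18), MAGEA4 (-1.08) and MT1E (-0.81), all with line sums and none passing the test. The arithmetic mean of the lines was not among the 46 settings, and with it 22 calls over all genes changed direction. KRT14, for example, averaged 132 CPM in HCC70, below the 269 CPM that is the arithmetic mean of the other 6 lines. Of calls named above, MT-ND2 lost its call in 21 settings and NDUFB1 in 14.

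The share of higher calls (45.1%) moved by over 10 points with library totals (32.6%), upper-quartile factors (34.0%) and the arithmetic mean of the lines (33.5%, 1757 higher), the last added after seeing the data. Lower calls, 3597 in the fit reported, were 2305 with a minimum count of 30, 2116 when the fold itself was tested (glmTreat) and 2289 among genes at 5 CPM or more in a line (added). With line sums 14 were higher and 0 lower, with a share of 100%. Without each library in turn, 2937 to 3194 were higher and 3167 to 3763 lower (45.2% to 48.1% higher), and without each line 2822 to 3019 and 3271 to 3600. With the replicate block the counts were 2967 and 3607, and with a run block in runs 3 to 5, 2827 and 3275. Against the 4 lines grown in RPMI medium like HCC70, the counts were 2956 and 3520. The cause of these differences was not tested.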
